A study of Mus musculus with 96 samples.

Results

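The mir-183, mir-96 and mir-182 cluster is a set of 3 microRNA stem-loops that lie next to each other in the mouse genome, and it was followed here across the cerebellum of mice of an allelic series for Huntington's disease. Its members were found by their miRBase stem-loop IDs, MI0000225 for mir-183, MI0000583 for mir-96 and MI0000224 for mir-182, and made up 3 of the 1187 stem-loops in the deposited tables and 3 of the 434 that passed the filter on low counts. They were chosen by measured values of these same libraries, namely their higher levels in Q50 mice than in controls at 10 months, so that comparison is given below as a description with no test. The controls of 10 months were the other side of that comparison. Every other test that uses them therefore shares values with the choice. The Q50 libraries of 10 months were also in the fits of sex and of the other mutant lines at that age. The fits that compared mutant effects between ages held them too. The labels do not pair IDs with names. The stem-loop lengths implied by the ratio of count to FPKM were 70 bases for mir-183, 106 for mir-96 and 75 for mir-182, the lengths of the RefSeq hairpins of these names.

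Small RNA was sequenced from total RNA of C57BL/6 mice that were heterozygous for an engineered Huntingtin (Htt) gene, with a wild-type Htt allele on the other chromosome, and from wild-type (WT) mice born into the Q20 or the Q50 line. The knock-in lines Q20, Q50, Q92 and Q140 are named after their number of CAG repeats. Each of these 6 genotype groups was sampled at 6 and at 10 months with 4 females and 4 males, which gave 96 libraries of 5435778 to 7934044 estimated counts. The mutant lines Q50, Q92 and Q140 were set against controls, meaning the Q20 and all WT libraries, within each age. WT mice of the Q92 and Q140 lines were not analysed here.

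At 6 months 2 libraries stood apart from the rest in their overall profile and were left out of all fits, as the study's own limit requires, namely Q20 female replicate 2 and Q92 male replicate 4. Another 6 libraries had a standardized connectivity (Z.k, how close a library is to the others of its age, with low values for outlying libraries) under -3 and stayed in. A part of the library name, called the L tag here (2, 3 or 4 at 6 months, 1 or 8 at 10 months), was used as a term in the fits, and its meaning is not given in the labels. The tissue was whole cerebellum, in which fewer cells of a type and less RNA per cell cannot be told apart.

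A microRNA stem-loop is the hairpin from which a mature microRNA is cut, and the mature strand directs silencing of messenger RNAs mainly through its seed, the bases near its 5′ end. The mir-183, mir-96 and mir-182 hairpins are known as a polycistronic family that is transcribed together and is abundant in sensory cells, among them photoreceptors, hair cells of the inner ear and sensory neurons. Seed mutations of miR-96 are known to cause hearing loss in mice and in people.

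The mature 5p strands are printed because their seeds are close to each other but not identical. They were taken from RefSeq (mouse build GRCm38.p6), run 5′ to 3′, and have the seed, bases 2 to 8, in capitals.
miR-183-5p: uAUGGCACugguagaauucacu
miR-96-5p: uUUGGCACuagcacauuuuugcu
miR-182-5p: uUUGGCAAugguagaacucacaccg

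Counted from 1 at the 5′ end, the seeds of miR-96-5p and miR-182-5p differed by C8A, those of miR-96-5p and miR-183-5p by U2A, and those of miR-182-5p and miR-183-5p by U2A and A8C. Of the annotated mature mouse strands in the table, miR-1271-5p carried the seed of miR-96-5p, and no other strand carried the seed of miR-183-5p or of miR-182-5p. Over the whole strand, seed included, miR-182-5p and miR-183-5p were closest, with 18 of 22 aligned positions identical. It was 12 of 23 for miR-96-5p and miR-182-5p and 13 of 22 for miR-96-5p and miR-183-5p. The hairpins are printed because the deposited counts were made per hairpin and not per strand, with the 5p strand in capitals.
mir-183 hairpin: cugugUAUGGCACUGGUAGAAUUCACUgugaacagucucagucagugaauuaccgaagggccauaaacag
mir-96 hairpin: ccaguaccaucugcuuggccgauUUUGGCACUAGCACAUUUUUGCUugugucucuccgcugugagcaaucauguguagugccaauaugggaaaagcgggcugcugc
mir-182 hairpin: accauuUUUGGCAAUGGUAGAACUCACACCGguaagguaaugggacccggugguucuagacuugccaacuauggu

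All hairpins lie on the minus strand of chromosome 6 (mm10, the build of the deposited data, which is GRCm38). In the direction of transcription mir-183 (chr6:30169668-30169737) comes first, mir-96 (chr6:30169446-30169551) follows after 116 bases, and mir-182 (chr6:30165918-30165992) after another 3453 bases, so the cluster spans 3820 bases. The cluster overlaps no annotated gene other than its own microRNAs in GENCODE M21. The nearest is the long non-coding RNA gene Rncr4 on the plus strand, 3155 bases away, and the protein-coding gene Nrf1, also on the plus strand, is 12459 bases away on the other side.

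The members differed widely in abundance. On the deposited FPKM scale, which divides by hairpin length, the median over all 96 libraries was 10921 for mir-182, 907 for mir-183 and 59.2 for mir-96. By median estimated count, with no division by length, they ranked 81, 188 and 306 of 1187 stem-loops in the same order. In CPM, the count scaled to a common library total and used below for each member on its own, mir-182 ran between 282 and 7267, mir-183 between 23.9 and 829.2 and mir-96 between 1.07 and 31.5. The estimated counts behind these values were 1598 to 46142 for mir-182, 156 to 5265 for mir-183 and 7 to 200 for mir-96, so mir-96 carried the largest counting error. All counts of the members were whole numbers, with no sign of reads shared with other stem-loops.

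**Figure D1:**
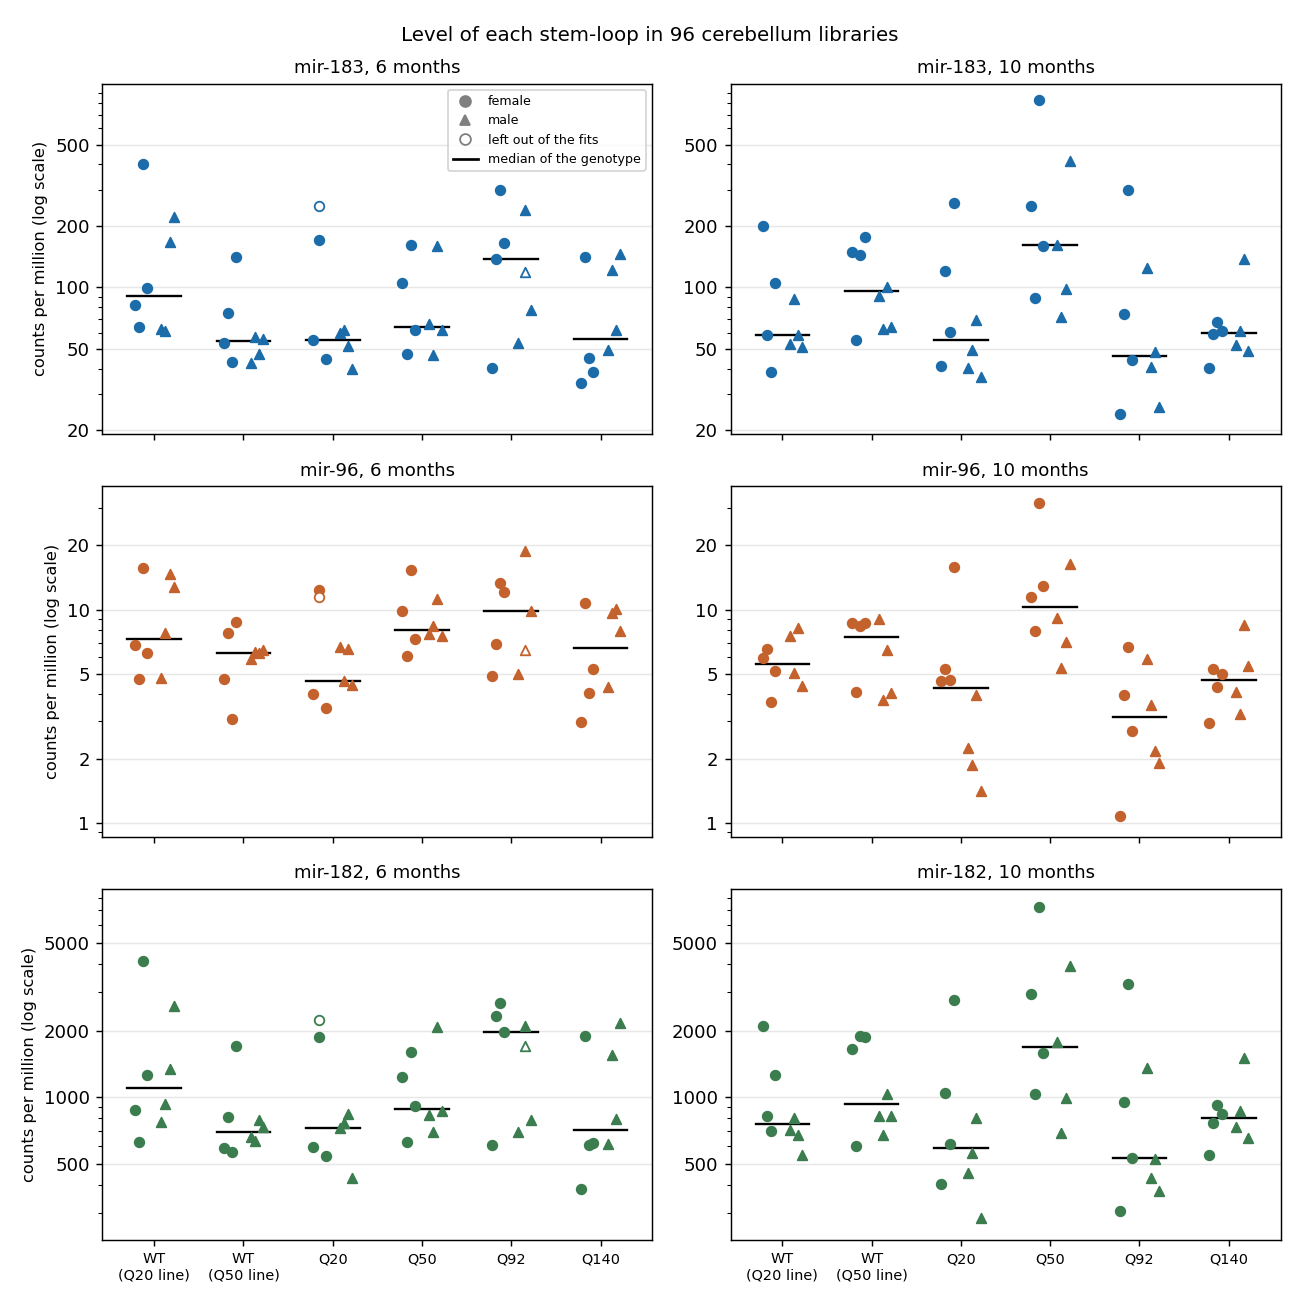
Each point is 1 library, with circles for females and triangles for males, hollow points for the 2 libraries left out of the fits and a black line at the median of the genotype. The y axis is CPM on a log scale. High libraries occurred in most genotypes, and in the Q50 panel at 10 months the highest mir-183 library reached 829.2 CPM.

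In Q50 mice at 10 months, the comparison that chose the members, mir-183 had 251, 88.5, 829.2 and 160 CPM in females and 162, 72.0, 98.2 and 416 CPM in males, against 36.2 to 259 CPM with a median of 63.6 in the 24 controls. All 8 Q50 libraries were above the control median, and 2 of them were above the highest control. mir-182 had 2919, 1031, 7267 and 1581 CPM in Q50 females and 1778, 687, 986 and 3917 CPM in Q50 males, against 282 to 2745 CPM with a median of 804 in controls. Here 7 of 8 Q50 libraries were above the control median and 3 were above the highest control. mir-96 had 11.5, 7.96, 31.5 and 12.96 CPM in Q50 females and 9.10, 5.29, 7.07 and 16.4 CPM in Q50 males, against 1.41 to 15.9 CPM with a median of 5.10 in controls. All 8 Q50 libraries were again above the control median and 2 were above the highest control, so for each member the groups overlapped.

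The fitted log2 fold change of Q50 against controls at 10 months was 1.41 (SE 0.34) for mir-183, 1.02 (SE 0.25) for mir-96 and 1.254 (SE 0.32) for mir-182. In this comparison edgeR called 11 of the 434 stem-loops higher, 2.53%, and limma on log2(FPKM + 1) called 0 in either direction, with 88 at an unadjusted p under 0.05 in limma. Nothing is read from these counts, since the comparison chose the members. The highest Q50 values came from female replicate 3 and male replicate 4, whose Z.k values were -4.30 and -3.36, and leaving out female replicate 3 alone brought the number of called stem-loops to 0 of 434. Without all libraries of Z.k under -3 the log2 fold changes were 0.60 for mir-183, 0.58 for mir-96 and 0.57 for mir-182. Against WT mice of the Q50 line alone, a control group chosen after seeing the data, they were 1.08 (SE 0.48), 0.79 (SE 0.32) and 0.91 (SE 0.44), in the same order of members. Within L tag 1 the log2 fold changes were 1.11, 0.86 and 0.99, and within L tag 8 they were 1.56, 1.24 and 1.43, again for mir-183, mir-96 and mir-182. The share of the outlying profile of these libraries in the Q50 values was not tested.

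In Q50 mice at 6 months, which did not enter the choice of members, none of the members differed from controls beyond the spread. mir-183 ran from 46.4 to 162 CPM with a median of 64.1 in 8 Q50 libraries, against 39.9 to 400 CPM with a median of 61.5 in 23 controls. mir-182 ran from 623 to 2079 CPM with a median of 887 in Q50, against 430 to 4136 CPM with a median of 770 in controls. mir-96 ran from 6.02 to 15.2 CPM with a median of 8.02 in Q50, against 3.08 to 15.6 CPM with a median of 6.30 in controls, and 7 of the 8 Q50 libraries were above the control median. The groups overlapped for every member. The log2 fold changes were -0.04 (SE 0.40) for mir-183, 0.31 (SE 0.26) for mir-96 and 0.06 (SE 0.35) for mir-182, with adjusted p-values of 0.999, 0.895 and 0.999 (edgeR quasi-likelihood test, Benjamini-Hochberg over 434 stem-loops). No stem-loop was called in this comparison (0%) by edgeR, DESeq2 or limma on log2(FPKM + 1), and 13 had an unadjusted p under 0.05 in edgeR. Against WT mice of the Q50 line alone the 6-month log2 fold changes were 0.44 for mir-183, 0.49 for mir-96 and 0.44 for mir-182, each with an adjusted p of 0.994 (edgeR), which turned the sign for mir-183. Within L tags 3 and 4 they were -0.17 and 0.34 for mir-183, 0.49 and 0.38 for mir-96 and 0.11 and 0.21 for mir-182.

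In Q92 mice at 6 months the medians of all 3 members were higher than in controls, but no difference passed the test. mir-183 had 40.3, 138, 298 and 165 CPM in Q92 females and 53.4, 240 and 77.7 CPM in Q92 males, against a control median of 61.5 CPM. mir-182 had 608, 2325, 2667 and 1968 CPM in Q92 females and 698, 2093 and 784 CPM in Q92 males, against a control median of 770 CPM. mir-96 had 4.86, 6.92, 13.3 and 12.1 CPM in Q92 females and 4.96, 18.8 and 9.89 CPM in Q92 males, against a control median of 6.30 CPM. For each member 5 of the 7 Q92 libraries were above the control median, and all Q92 libraries lay within the control range except Q92 male replicate 2 for mir-96. The log2 fold changes were 0.72 (SE 0.38), 0.63 (SE 0.25) and 0.68 (SE 0.34) for mir-183, mir-96 and mir-182, with an adjusted p of 0.862 for each and unadjusted p-values of 0.0624, 0.017 and 0.0541 in edgeR. No stem-loop was called (0%) by edgeR, DESeq2 or limma, and 22 had an unadjusted p under 0.05 in edgeR. Within L tag 4, where Q92 male replicate 2 was the only Q92 library in the fit, the log2 fold change was 2.09 for mir-183, 1.60 for mir-96 and 1.35 for mir-182, and within L tag 3 it was 0.42, 0.40 and 0.59. Without Q92 female replicate 2 the count called was 3.

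In Q92 mice at 10 months mir-183 and mir-182 were close to controls on average and mir-96 was lower, again without passing the test. mir-96 had 1.07, 3.98, 6.66 and 2.70 CPM in Q92 females and 5.87, 3.57, 2.16 and 1.90 CPM in Q92 males, against a control median of 5.10 CPM. Only 2 of 8 Q92 libraries were above that median, and the groups overlapped. The log2 fold change of mir-96 was -0.70 (SE 0.30) with an adjusted p of 0.343 and an unadjusted p of 0.0233 (edgeR). For mir-183 it was -0.10 (SE 0.37, adjusted p 0.943 in edgeR) and for mir-182 it was -0.05 (SE 0.34, adjusted p 0.967 in edgeR). mir-183 ran from 23.9 to 300.3 CPM and mir-182 from 304 to 3252 CPM in these 8 libraries, with medians of 46.4 and 528 CPM, against control medians of 63.6 and 804 CPM. Both maxima were Q92 female replicate 3, a library with a Z.k of -3.51, and without it the log2 fold changes were -0.58 for mir-183 and -0.48 for mir-182. Within L tags 1 and 8 the change was -0.65 and -0.68 for mir-96, -0.19 and 0.05 for mir-183 and -0.08 and 0.05 for mir-182. No stem-loop was called in this comparison (0%) by edgeR, DESeq2 or limma, and 47 had an unadjusted p under 0.05 in edgeR. Without Q92 male replicate 1 the count called was 3.

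The Q92 estimates of all members thus had opposite signs at the 2 ages, though none passed its test. At 10 months those of mir-183 (-0.10, SE 0.37) and mir-182 (-0.05, SE 0.34) were near 0. The difference itself was tested as an interaction over the 94 libraries of both ages, with the Q50 libraries of 10 months among them. No L tag occurred at both ages, so here and in the Q140 interaction below a difference by age cannot be told apart from one by tag. For mir-96 the Q92 effect at 10 months minus that at 6 months was -1.36 on the log2 scale (SE 0.40), with an unadjusted p of 0.000997 and an adjusted p of 0.169 in edgeR. Without the libraries of Z.k under -3 it was -1.65 (SE 0.39) with an adjusted p of 0.0219 in edgeR, the setting in which this difference passed the threshold, while its adjusted p over all settings other than single left-out libraries ran from 0.0219 to 0.336. The differences for mir-183 (-0.83, SE 0.54) and mir-182 (-0.73, SE 0.50) had adjusted p-values of 0.648 and 0.662 in edgeR. No stem-loop was called in this interaction (0%) by edgeR, DESeq2 or limma, and 39 had an unadjusted p under 0.05 in edgeR.

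In Q140 mice, which carry the longest repeat of these lines, no member differed from controls beyond the spread at either age. At 6 months mir-183 had 34.2, 140, 45.0 and 38.6 CPM in Q140 females and 49.5, 122, 62.0 and 146 CPM in Q140 males, against a control median of 61.5 CPM, with 4 of 8 Q140 libraries above it. At 10 months mir-183 had 40.4, 58.9, 67.7 and 60.8 CPM in Q140 females and 52.1, 61.0, 138 and 48.5 CPM in Q140 males, against a control median of 63.6 CPM, with 2 of 8 above it. The groups overlapped at both ages. mir-182 had medians of 709 CPM in Q140 and 770 CPM in controls at 6 months, and 800.1 CPM in Q140 and 804 CPM in controls at 10 months. mir-96 had medians of 6.59 CPM in Q140 and 6.30 CPM in controls at 6 months, and 4.65 CPM in Q140 and 5.10 CPM in controls at 10 months.

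The log2 fold changes of Q140 against controls at 6 months were -0.21 (SE 0.38) for mir-183, -0.10 (SE 0.26) for mir-96 and 0.05 (SE 0.33) for mir-182, with adjusted p-values of 0.821, 0.88 and 0.961 in edgeR. At 10 months they were -0.39 (SE 0.38), -0.24 (SE 0.29) and -0.14 (SE 0.35) in the same order, with adjusted p-values of 0.813, 0.845 and 0.953 in edgeR. The controls of 10 months took part in the choice of the members, and the Q50 libraries of that age were in the same fit. The sign at 10 months differed between L tags for mir-183, at -0.83 (SE 0.57) within L tag 1 and 0.33 (SE 0.50) within L tag 8, and for mir-182, at -0.65 (SE 0.54) and 0.44 (SE 0.46), while mir-96 gave -0.62 (SE 0.51) and -0.02 (SE 0.35). The Q140 libraries of L tag 1 were all female, and those of L tag 8 were male except female replicate 3. In Q140 of that age a difference by tag therefore cannot be told apart from one by sex. At 6 months, within L tags 2, 3 and 4, the change was -0.90, -0.40 and 0.38 for mir-183, -0.28, -0.39 and 0.31 for mir-96 and -0.78, 0.08 and 0.59 for mir-182. Within L tag 4 the only Q140 library was female replicate 2. The background was 10 of 434 stem-loops called at each age, 2.30%, of which 8 at 6 months and 7 at 10 months were lower in Q140. Leaving out 1 library moved that count to between 0 (without Q140 female replicate 1 or 4) and 30 (without WT male replicate 2 of the Q20 line) at 6 months, and to between 1 (without Q140 female replicate 1 or 4) and 11 at 10 months. The sign for mir-182 at 6 months was not stable and turned under several settings. The Q140 effect at 10 months minus that at 6 months was -0.21 (SE 0.53), -0.14 (SE 0.39) and -0.24 (SE 0.49) for mir-183, mir-96 and mir-182, each with an adjusted p of 0.906 in edgeR. No stem-loop was called in that interaction (0%) by edgeR or limma, 1 was called by DESeq2, and 28 had an unadjusted p under 0.05 in edgeR.

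**Figure D2:**
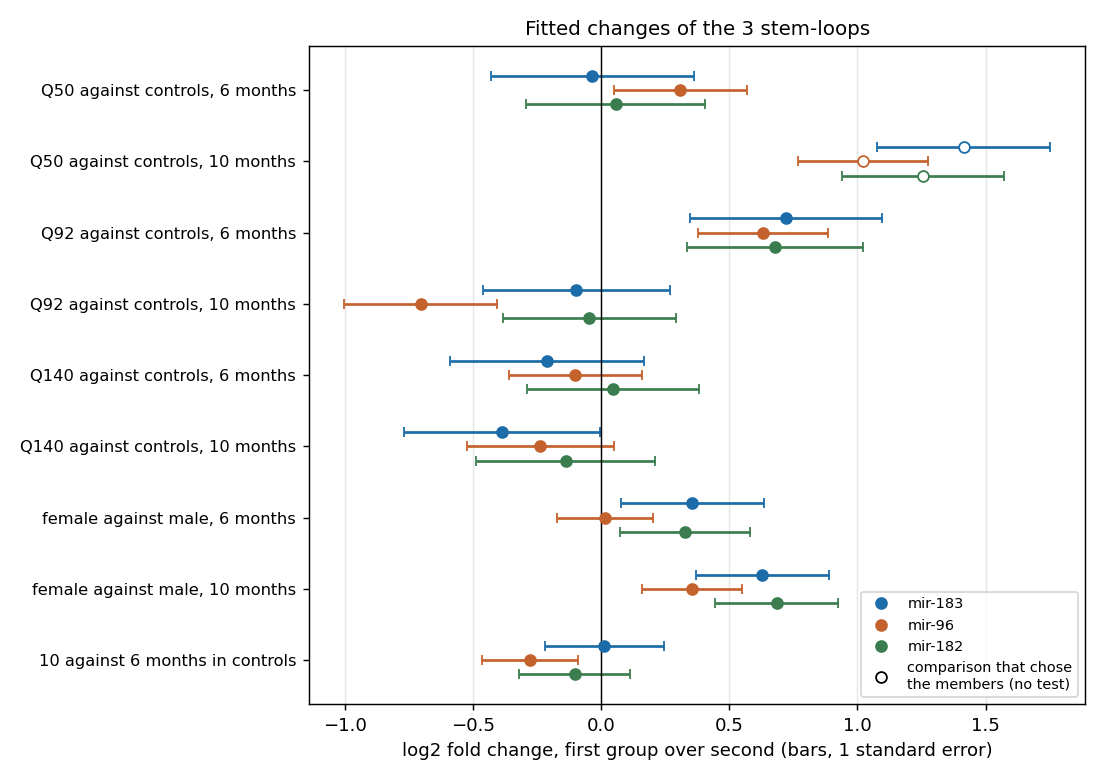
Points are fitted log2 fold changes of the first-named group over the second and bars are 1 standard error, with hollow points for the comparison that chose the members. In the Q92 rows at 6 months the points lie between 0.63 and 0.72, and in the Q140 rows between -0.39 and 0.05.

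With CAG length as a number (7 for WT), the change per 100 CAG at 6 months was 0.08 (SE 0.28) for mir-183, 0.13 (SE 0.20) for mir-96 and 0.20 (SE 0.25) for mir-182 on the log2 scale, with adjusted p-values of 0.912, 0.805 and 0.771 in edgeR. At 10 months, with the Q50 libraries left out because they chose the members, it was -0.26 (SE 0.25), -0.33 (SE 0.20) and -0.11 (SE 0.23), with adjusted p-values of 0.827, 0.632 and 0.971 in edgeR. Controls of that age, which also took part in the choice, stayed in. Of the 434 stem-loops 2.76% were called for CAG length at 6 months and 0.691% at 10 months, and without 1 library these 12 and 3 stem-loops became 3 (without Q140 female replicate 1 or 4) to 14 and 1 (without Q140 female replicate 1 or 4 or male replicate 1) to 12 (without WT male replicate 4 of the Q50 line). Within L tags 2, 3 and 4 at 6 months the change per 100 CAG was -0.73, -0.05 and 1.24 for mir-183, -0.24, -0.08 and 0.96 for mir-96 and -0.64, 0.26 and 0.88 for mir-182, and within L tags 1 and 8 at 10 months it was -0.50 and 0.17, -0.56 and -0.23, and -0.38 and 0.23 for the same members. Within L tag 4 the only Q92 and Q140 libraries in the fit were Q92 male replicate 2 and Q140 female replicate 2. Within L tag 1 all Q140 libraries were female. By genotype the median of mir-182 at 10 months was 756 CPM in WT mice of the Q20 line, 927 in WT mice of the Q50 line, 588 in Q20, 1680 in Q50, 528 in Q92 and 800.1 in Q140, so the levels followed no order of repeat length. At 6 months the medians were 1095 in WT mice of the Q20 line, 694 in WT mice of the Q50 line, 725 in Q20, 887 in Q50, 1968 in Q92 and 709 in Q140, and Q92 rather than Q50 was highest. At either age the range of the libraries of each genotype overlapped that of its neighbours in the order of medians.

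Sex was compared within each age with all genotypes in the fit, which at 10 months included the Q50 libraries whose values chose the members. At 10 months mir-182 ran from 404 to 2745 CPM with a median of 1151 in 12 control females, against 282 to 1031 CPM with a median of 691 in 12 control males. mir-183 ran from 38.6 to 259 CPM with a median of 113 in the same females, against 36.2 to 101 CPM with a median of 60.8 in the males. mir-96 ran from 3.68 to 15.9 CPM with a median of 5.59 in females, against 1.41 to 9.05 CPM with a median of 4.23 in males. The upper part of the female range lay above every control male, and the lower parts overlapped. The female median was higher in 6 of 6 genotype groups for mir-183 and mir-182 and in 4 of 6 for mir-96. Without Q50 it was higher in 5 of 5 for mir-183 and mir-182 and in 3 of 5 for mir-96. In Q140 the mir-182 medians were nearly equal, at 800.1 CPM in females and 798.1 in males. The Q140 mean was lower in females, at 766 against 939 CPM, while the other groups had a higher female mean of mir-182.

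The fitted log2 fold change of females against males at 10 months was 0.68 (SE 0.24) for mir-182, 0.63 (SE 0.26) for mir-183 and 0.35 (SE 0.20) for mir-96, with adjusted p-values of 0.0793, 0.151 and 0.304 and unadjusted p-values of 0.0065, 0.0192 and 0.0776 in edgeR. This fit and those with 1 library left out held Q50 libraries, so they share values with the choice of the members. None passed the threshold, where 6.91% of the 434 stem-loops did (30, and 15 to 35 without 1 library, the 15 without Q20 male replicate 1 or without WT male replicate 2 of either line). Within L tags 1 and 8 the difference was 0.50 and 1.10 for mir-182, 0.28 and 1.255 for mir-183 and 0.46 and 0.31 for mir-96. For mir-182 the adjusted p was under the threshold in edgeR when any of 4 libraries was left out, namely 0.0379 without Q50 male replicate 4, 0.043 without Q92 female replicate 1, 0.0473 without Q140 male replicate 3 and 0.0488 without Q92 male replicate 1. Without the Q50 libraries, a choice made after seeing the data, the difference was 0.70 (SE 0.24, adjusted p 0.108 in edgeR) for mir-182 and 0.63 (SE 0.26, adjusted p 0.188 in edgeR) for mir-183. At 6 months the differences were 0.33 (SE 0.25) for mir-182, 0.36 (SE 0.28) for mir-183 and 0.02 (SE 0.19) for mir-96, with adjusted p-values of 0.587, 0.587 and 0.97 in edgeR, and 1.15% of stem-loops were called (5, and 4 to 14 without 1 library, the 14 without Q50 male replicate 3). Within L tags 2, 3 and 4 they were -0.40, 0.28 and 0.59 for mir-182, -0.45, 0.20 and 0.92 for mir-183 and -0.64, -0.17 and 0.46 for mir-96. The female median was then higher in 3 of 6 genotype groups for mir-183 and mir-182 and in 1 of 6 for mir-96. Whether the sex difference itself changed with age was not tested.

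Between the ages no member differed in controls beyond the spread. Of 24 controls at 10 months and 23 at 6 months, the medians were 63.6 and 61.5 CPM for mir-183, 5.10 and 6.30 CPM for mir-96, and 804 and 770 CPM for mir-182. The log2 fold changes of 10 against 6 months were 0.01 (SE 0.23), -0.28 (SE 0.19) and -0.10 (SE 0.22) in that order, with adjusted p-values of 0.971, 0.347 and 0.807 in edgeR. No L tag occurred at both ages, so in this comparison an effect of age cannot be told apart from one of the tags. In the same comparison 18% of stem-loops were called, 36 higher and 42 lower at 10 months.

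The members varied more between libraries than most stem-loops did. At 6 months the SD of log2(CPM + 0.5) over 46 libraries was 0.88 for mir-183, 0.80 for mir-182 and 0.61 for mir-96, against a median of 0.22 over the 434 stem-loops, and they ranked 22, 24 and 35 from the top. In controls alone at that age the SDs were 0.86, 0.79 and 0.59. At 10 months without the Q50 libraries they were 0.85, 0.81 and 0.69, against a median of 0.24, with ranks of 23, 27 and 33. Among stem-loops of a like or higher level the members also stood near the top, since at 6 months 0 of the 77 stem-loops at or above the mean level of mir-182 (itself included) had a larger SD than mir-182, and 1 of the 180 at or above the mean level of mir-183 had a larger SD than mir-183. For mir-96 it was 13 of 294.

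**Figure D3:**
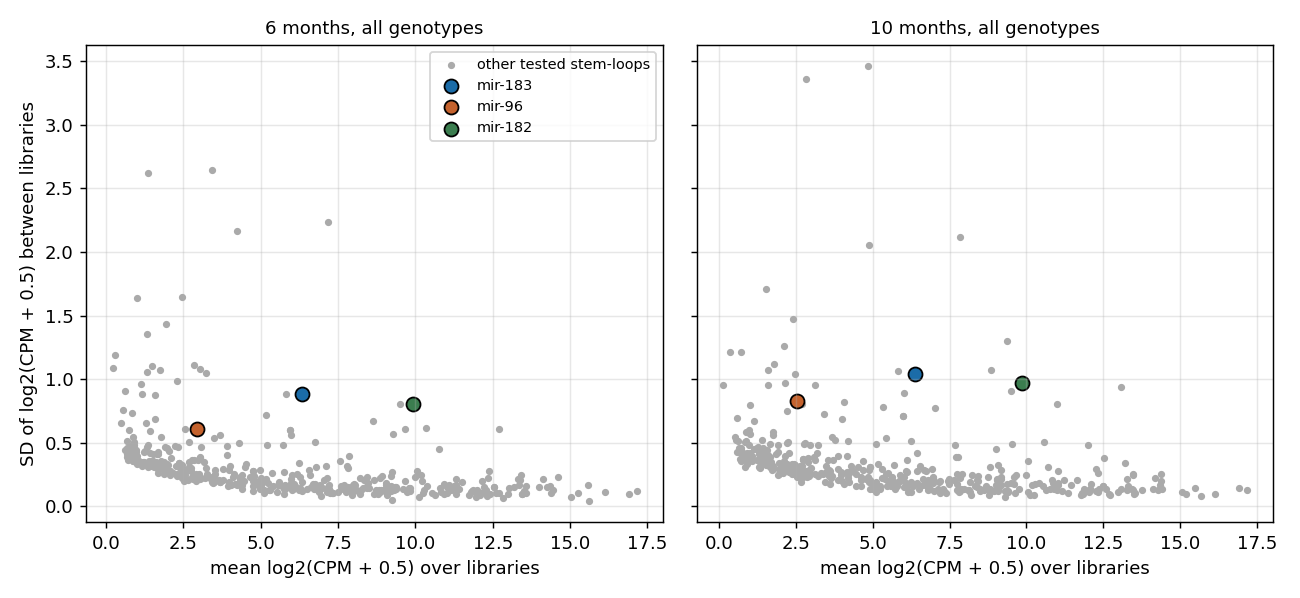
Each point is 1 of 434 tested stem-loops, with its mean log2(CPM + 0.5) on the x axis and its SD between libraries on the y axis, over all genotypes of an age (Q50 included at 10 months). The members stand well above the bulk of stem-loops of their level, with SDs of 0.88, 0.80 and 0.61 at 6 months.

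This spread took the form of a small number of high libraries spread over the genotypes. The summed CPM of the members was above 2000 in 18 of the 94 libraries in the fits, 10 of 46 at 6 months and 8 of 48 at 10 months. By genotype at 6 months these were 2 of 8 WT libraries of the Q20 line, 0 of 8 WT libraries of the Q50 line, 1 of 7 Q20, 1 of 8 Q50, 4 of 7 Q92 and 2 of 8 Q140. At 10 months they were 1 of 8 WT libraries of the Q20 line, 2 of 8 of the Q50 line, 1 of 8 Q20, 3 of 8 Q50, 1 of 8 Q92 and 0 of 8 Q140. The highest sum outside Q50 at 10 months was 4552 CPM in a WT female of the Q20 line at 6 months (replicate 3), a library with a Z.k of -4.71. Of the 18 high libraries 4 had a Z.k under -3, and 6 of all 94 libraries had one. How far an outlying profile and a high level of these microRNAs belong together was not tested.

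The levels of the members went up and down together from library to library. At 6 months (n = 46 libraries) the correlation of log2(CPM + 0.5) was r = 0.961 (Spearman's rho 0.909) for mir-183 and mir-182, r = 0.849 (rho 0.832) for mir-183 and mir-96, and r = 0.825 (rho 0.869) for mir-96 and mir-182. At 10 months without Q50 (n = 40 libraries) it was r = 0.961 (rho 0.944), r = 0.768 (rho 0.758) and r = 0.776 (rho 0.748) for the same pairs. Each of these 6 correlations, for r and for rho, had a permutation p of 1e-05, the smallest that 100000 permutations can give, and a Benjamini-Hochberg adjusted p of 1e-05 over the 6. Without the 2 libraries farthest from the median the r values were 0.951, 0.837 and 0.803 at 6 months and 0.945, 0.753 and 0.712 at 10 months. The libraries of an age share genotype effects and total depth as a divisor. In the 24 controls at 10 months alone r was 0.951 for mir-183 and mir-182, 0.73 for mir-183 and mir-96, and 0.764 for mir-96 and mir-182.

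Within single L tags r for mir-183 and mir-182 lay between 0.945 and 0.998 over the 5 tags. For mir-183 and mir-96 it lay between 0.664 (L tag 8, n = 20) and 0.887 (L tag 3, n = 24), and for mir-96 and mir-182 between 0.652 (L tag 8) and 0.899 (L tag 1, n = 20). In the 8 Q50 libraries at 10 months, given as a description, r was 0.993 for mir-183 and mir-182, 0.962 for mir-183 and mir-96, and 0.951 for mir-96 and mir-182.

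**Figure D4:**
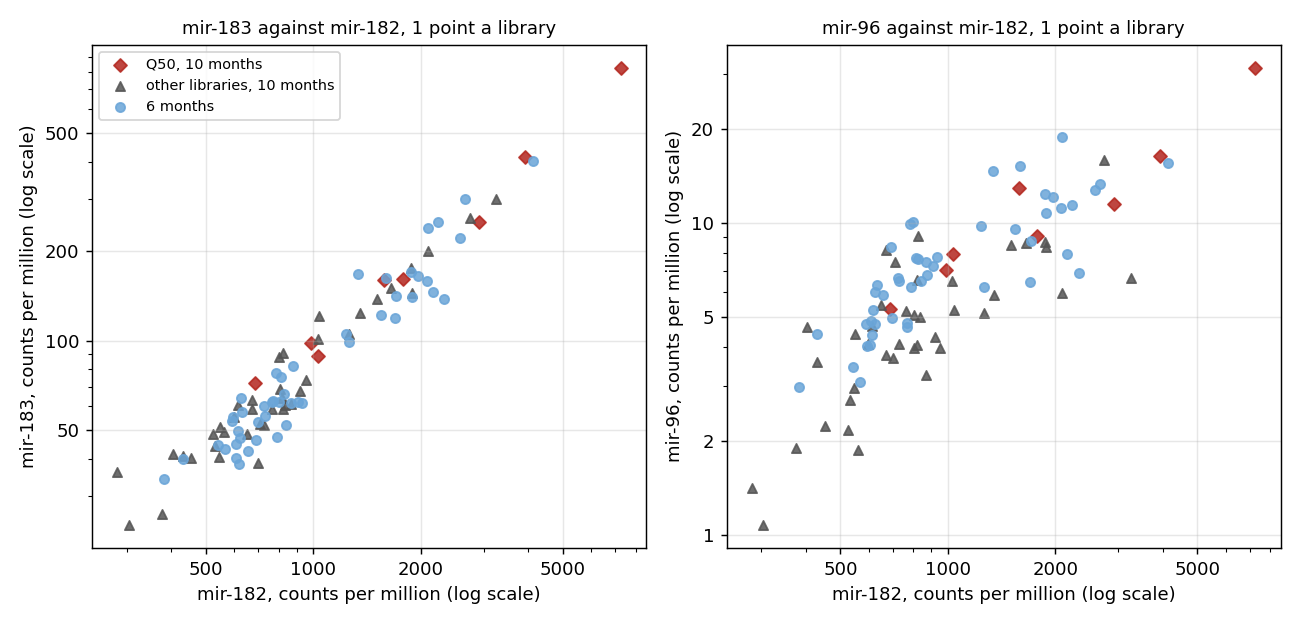
Each point is 1 library, with the CPM of mir-182 on the x axis and that of mir-183 (left) or mir-96 (right) on the y axis, both log scaled. The mir-183 points keep close to a line (r = 0.961 at 6 months), the mir-96 points scatter more widely (r = 0.825), and the Q50 libraries of 10 months extend the same band to 7267 CPM of mir-182.

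The ratio between the members was steadier for mir-183 and mir-182 than for mir-96. On the FPKM scale the log2 ratio of mir-183 to mir-182 averaged -3.52 with an SD of 0.25 at 6 months (n = 46) and -3.41 with an SD of 0.23 at 10 months (n = 48). The log2 ratio of mir-96 to mir-182 averaged -7.60 with an SD of 0.46 at 6 months and -7.99 with an SD of 0.52 at 10 months. In the Q50 libraries at 10 months the log2 ratio of mir-183 to mir-182 averaged -3.25 ± 0.15 (SD, n = 8), against -3.37 ± 0.25 in controls (SD, n = 24). In Q140 it averaged -3.63 ± 0.12 (SD, n = 8) at 10 months and -3.63 ± 0.16 (SD, n = 8) at 6 months, against -3.48 ± 0.25 in controls at 6 months (SD, n = 23). In Q92 at 10 months the log2 ratio of mir-96 to mir-182 averaged -8.36 ± 0.57 (SD, n = 8), against -7.88 ± 0.55 in controls (SD, n = 24). These ratios were not tested, and the group ranges overlapped in each case.

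Among the other 431 tested stem-loops few followed the members. Likeness was measured as the mean of the Spearman correlations at 6 and at 10 months with the mean log2 level of the members, and its median over the 431 was 0.05. The highest were MI0000159 (0.72 at 6 months, 0.53 at 10 months), MI0000652 (0.68 and 0.45) and MI0000646 (0.45 and 0.56), the only 3 with a mean above 0.5, and MI0000725, MI0004692 and MI0000692 followed at means of 0.48, 0.47 and 0.46. Without the Q50 libraries the 10-month value was 0.39 for MI0000159, 0.37 for MI0000652 and 0.60 for MI0000646, and it was 0.53 for MI0000725, 0.24 for MI0004692 and 0.29 for MI0000692. The measure thus includes the Q50 libraries of 10 months, whose values chose the members. The members' own correlations with their mean were 0.94 to 0.96 at 6 months, but each member is a part of that mean, which raises its value. Between pairs of members rho was 0.832 to 0.909 at that age. MI0000159 held fractional counts in all 96 libraries, so part of its reads was shared with other stem-loops, whereas MI0000646 held whole counts in all. At the other end MI0000249 had -0.33 at 6 months and -0.57 at 10 months. The libraries behind these correlations share depth and composition, and the tables used here pair none of these IDs with a name.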

How the data were processed

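The study's methods name STAR (default settings, mouse build mm10) for alignment of the clipped reads and HTSeq for counting, and the submitters' processing notes also name CASAVA 1.8.2. The authors deposited estimated counts per miRBase stem-loop, not normalized, with fractions for some stem-loops but none for these members. The deposited FPKM values are the same counts scaled by library total and stem-loop length. FPKM served for levels between members and as an alternative test.

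Rounded counts went into edgeR 4.0.16 (R 4.3.3) with TMM factors, the quasi-likelihood test and Benjamini-Hochberg adjustment (threshold 0.05), over the 434 stem-loops that reached 10 counts in 8 or more libraries of both ages. Each age was fitted with genotype, sex and L tag, with Q20 and all WT libraries as controls. Libraries with Z.k under -5 were left out, which kept 46 at 6 months and 48 at 10 months. Z.k was recomputed from Euclidean distances after variance stabilization, as in the study. Correlations used log2(CPM + 0.5) and 100000 permutations. The edgeR fit of Q140 at 6 months was tested on simulated counts, drawn independently for each stem-loop. Those counts varied less between libraries than the members did, so the check does not cover stem-loops as variable as these.

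A count of 0 allows up to 0.552 CPM in the smallest library (3 counts, counting error only), and reads carried no molecular identifiers. The study describes separate animals for each group, so the libraries were treated as biological replicates. No library was identical to another.

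The members, lists and tests were chosen with earlier results of these data known. The named stem-loops are the members and the 6 others with the highest mean Spearman correlation with them. Lists of cell type markers were written by microRNA name and could not be matched to the IDs, so they were not run, and the labelled tissue was not checked against markers. RefSeq tables matched 3 of 3 members by hairpin name.

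Alternatives were DESeq2 1.42.0, also after replacing single outlying counts by the study's method, RLE factors, filtering at a mean count of 50 or not at all, keeping all libraries, libraries with Z.k under -3 left out, no L tag, WT controls alone, limma 3.58.1 on log2(FPKM + 1) and log2(FPKM + 0.1), a replicate block, fits within an L tag, and each library left out in turn. Chosen after seeing the data were the fit of sex without Q50, WT mice of the Q50 line alone as controls, and leaving out each library in turn for the differences between ages.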

Additional observations from a re-analysis of the deposited data

Results flagged for a closer look

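In 8 of 72 tests (3 members in 24 groups of 4) a library stood apart from the other libraries of its genotype, age and sex by Dixon's criterion, with a gap over 0.829 of the group's range. For normal values this limit flags about 1 group in 20 by chance. CPM was skewed to high values here, with a mean of 98.2 and a median of 62.1 for mir-183 at 6 months. The members also rise and fall together. Nothing is therefore read from the number of flags, and no rate over the other stem-loops was computed. mir-183 was highest at 138 CPM in Q140 male replicate 3 at 10 months (the other 3 libraries had 48.5 to 61.0) and at 140 CPM in Q140 female replicate 2 at 6 months (others 34.2 to 45.0). The same Q140 female library also held the highest mir-182, at 1886 CPM (others 382 to 618). mir-182 was highest at 2079 CPM in Q50 male replicate 3 at 6 months (others 693 to 866) and at 1349 CPM in Q92 male replicate 1 at 10 months (others 376 to 525). mir-183 reached 400.3 CPM in WT female replicate 3 of the Q20 line at 6 months (others 64.1 to 98.8), a library with a Z.k of -4.71. mir-96 was highest at 15.9 CPM in Q20 female replicate 4 at 10 months (others 4.64 to 5.24) and lowest at 4.08 CPM in WT female replicate 2 of the Q50 line at 10 months (others 8.36 to 8.66). Of these libraries, Q140 male replicate 3 and Q92 male replicate 1 are among those whose removal brought the sex difference of mir-182 under the threshold. Without Q140 male replicate 3 the Q140 change at 10 months was -0.67 for mir-183, without Q92 male replicate 1 the Q92 change at 10 months was -0.92 for mir-96, and without Q50 male replicate 3 the Q50 change at 6 months was -0.15 for mir-182.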

How the results depend on the processing

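Signs of values near 0 turned under some settings, with adjusted p of 0.605 or more in each turned value that has a test. Values within an L tag carry no test. For 10 against 6 months in controls, mir-183 gave -0.083 with all libraries, -0.030 with WT controls alone and -0.094 to 0.12 without 1 library, and mir-182 gave 0.0006 without libraries of Z.k under -3 and -0.21 to 0.0006 without 1 library. For Q140 at 6 months, mir-182 gave -0.022 with all libraries, -0.13 with WT controls alone, -0.074 with limma at either pseudocount, -0.78 within L tag 2 and -0.40 to 0.22 without 1 library. For Q50 at 6 months, mir-183 gave 0.16 without libraries of Z.k under -3, 0.033 with limma at either pseudocount, 0.44 against WT mice of the Q50 line and -0.23 to 0.16 without 1 library, and mir-182 gave -0.15 to 0.24. For Q92 at 10 months without 1 library, mir-183 gave -0.58 to 0.067 and mir-182 -0.48 to 0.11. Female against male at 6 months gave, for mir-96, -0.061 without libraries of Z.k under -3, -0.12 with no L tag, -0.032 with limma on log2(FPKM + 1), -0.034 on log2(FPKM + 0.1), -0.64 within L tag 2 and -0.072 to 0.17 without 1 library. CAG length at 6 months gave -0.052 with WT controls alone, 1.24 within L tag 4 (-0.73 within L tag 2) and -0.049 to 0.28 without 1 library for mir-183, -0.64 within L tag 2 (0.88 within L tag 4) for mir-182 and 0.96 within L tag 4 (-0.24 within L tag 2) for mir-96. The Q140 effect between ages without 1 library ran from -0.48 to 0.20 for mir-183 and from -0.44 to 0.26 for mir-182.

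Larger values moved as follows. Within L tag 4 the Q92 change at 6 months was 2.09 for mir-183 and 1.60 for mir-96. Q50 at 10 months gave 0.60 for mir-183 without libraries of Z.k under -3. The Q92 difference between ages for mir-96 was -1.65 in that setting and then passed the threshold. Female against male at 10 months gave 0.53 to 0.78 for mir-182 without 1 library. The cause of these moves was not tested.

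The correlation of deviations of same-numbered libraries ran from -0.65 to 0.54. In females at 10 months its median was 0.13, with 33 of 60 pairs over 0.1, against a median of -0.03 for other pairs. In the remaining sets of age and sex the medians of same-numbered pairs lay between -0.04 and 0.04. Whether the replicate numbers pair the samples was not tested, and the main fits used no pairing. With a replicate block, Q50 against controls at 6 months gave 0.091 for mir-183, with the sign turned, and no call of a member changed. The number of stem-loops called, over these settings other than single left-out libraries, was 0 to 27 for Q140 at 6 months (24 with DESeq2, 0 with the block or without the filter), 1 to 12 at 10 months, 0 to 21 for Q50 at 10 months, 12 to 31 for sex at 10 months, 4 to 12 for sex at 6 months, 1 to 14 for CAG length at 6 months and 1 to 12 at 10 months, and 55 to 82 for age in controls. A mean count of at least 50 removed mir-96, which then had no value. Correlations between members kept their sign and an adjusted permutation p of 1e-05 on log2(FPKM + 1), with all libraries, without libraries of Z.k under -3 and for deviations from group means.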
